A study of Mus musculus with 8 samples.

Results

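Epithelial junction and identity genes were followed in 8 mouse mammary tumors. The group held 45 genes, chosen by function: cadherins and catenins of the adherens junction, claudins and other tight junction proteins, desmosome components, regulators of epithelial identity, and membrane-bound proteases and partners of epithelial cells. Each was read from the probe set that lists that gene alone, with the highest mean signal where a gene had more than 1, and all 45 had such a probe set, of 19937 genes that did. The tumors grew for 18 days from 4T1 cells, a mammary carcinoma line of BALB/c mice, after placement in the fourth mammary gland of BALB/c mice. In 4 tumors the gland had received 20 Gy of X-rays beforehand (preirradiated), and in the other 4 it had not (nonirradiated), which models a tumor that returns in a radiotherapy field. The carcinoma cells themselves were implanted after the dose, so in this model the treated compartment is the host tissue.

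Epithelial cells hold to each other through 3 kinds of junction. Adherens junctions join cells through E-cadherin and link to actin by catenins, tight junctions seal the space between cells with claudins and occludin, and desmosomes anchor keratin filaments through desmogleins, desmocollins, plakophilins and desmoplakin. Transcription factors of the grainyhead, OVOL and ETS families and the ESRP splicing factors keep this program on, and carcinoma cells can lose parts of it when they take on mesenchymal traits. Values are log2 RMA signals, in which the authors' normalization brings arrays close to each other, although array medians still differed slightly. In whole tumor tissue, fewer cells of a type and less RNA per cell cannot be told apart. The tissue is labelled a mammary epithelial carcinoma, and the simple-epithelium keratin Krt8 was 12.45 to 12.63 over the 8 tumors. The milk protein gene Csn2 (4.97 to 5.07) lay below the median of all probe set means, 5.98. Both are named for this check of the label. Of the 45 junction and identity genes, 20 had a mean above the upper quartile of probe set means (8.21), Cdh1, Epcam, Cldn3, Cldn4 and Cldn7 among them, and 9 had a mean below the median. The labels do not say that each tumor came from its own mouse, so p-values measure the spread between these tumors, which may be partly technical.

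The DNA ahead of these genes is shown for Cldn7, the gene with the smallest p, and for Epcam, Cldn4 and Rab25, whose values turned on a single tumor. RefSeq promoter windows, 250 bases before to 50 after an annotated start (GRCm38.p6), matched 25 of the 45 genes in 35 windows. Cdh1 was among the 20 genes without a window. Some genes have several windows, which can overlap, so windows are not independent units. The E-box CAGGTG, searched on both strands like the motifs that follow and bound by SNAI and ZEB repressors, stood in 18 of the 35 windows, or 51.4%, and in 20.2% of all 32817 windows. AACCGGTT, the grainyhead consensus, stood in 0 of 35 and in 0.146% of all windows, and CCGTTA, an OVOL core sequence, in 0 of 35 and in 2.75%. With 0 grainyhead and 0 OVOL matches in these windows, no position could be shared between motifs. A match describes letters and not binding. The 4 stretches printed here are the 250 bases before a start, 5′ to 3′ on the gene's strand, with each E-box in capitals. For Cldn7 the start shown is the one with E-boxes. The window of the other annotated Cldn7 start held none in its 250 bases.
Cldn7, chr11:69965171-69965420, plus strand: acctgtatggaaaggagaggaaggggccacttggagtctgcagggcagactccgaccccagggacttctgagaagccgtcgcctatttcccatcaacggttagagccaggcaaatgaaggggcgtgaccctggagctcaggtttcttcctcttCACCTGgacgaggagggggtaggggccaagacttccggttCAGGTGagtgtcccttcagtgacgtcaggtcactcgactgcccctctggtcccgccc
Epcam, chr17:87635729-87635978, plus strand: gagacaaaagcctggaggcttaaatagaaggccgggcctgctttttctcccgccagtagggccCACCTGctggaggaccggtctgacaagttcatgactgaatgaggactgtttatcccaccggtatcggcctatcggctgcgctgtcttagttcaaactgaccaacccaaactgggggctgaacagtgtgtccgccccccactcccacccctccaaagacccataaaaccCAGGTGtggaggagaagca
Cldn4, chr5:134946935-134947184, minus strand: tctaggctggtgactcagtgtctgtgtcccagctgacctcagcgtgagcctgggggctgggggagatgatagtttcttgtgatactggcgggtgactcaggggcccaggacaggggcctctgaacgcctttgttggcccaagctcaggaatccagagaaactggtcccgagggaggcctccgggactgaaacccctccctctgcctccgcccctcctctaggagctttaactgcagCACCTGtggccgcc
Rab25, chr3:88548280-88548529, minus strand: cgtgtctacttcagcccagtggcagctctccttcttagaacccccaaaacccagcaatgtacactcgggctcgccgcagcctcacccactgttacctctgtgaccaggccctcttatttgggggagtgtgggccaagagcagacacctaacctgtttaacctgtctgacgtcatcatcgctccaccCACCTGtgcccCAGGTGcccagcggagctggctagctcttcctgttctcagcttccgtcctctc
Cldn7 held E-boxes beginning 97 and 57 bases before this start. In Epcam they began at 187 and 19 bases, in Rab25 at 64 and 53 bases, and in Cldn4 at 14 bases.

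As a group the junction and identity genes were close to level between preirradiated and nonirradiated tumors. Of 45 genes, 28 were higher and 17 lower on average, and the median log2 difference (preirradiated minus nonirradiated) was 0.033, beside -0.00087 over all 34738 probe sets tested. Array medians were 5.937 to 5.977 in nonirradiated and 5.982 to 5.996 in preirradiated tumors, so all preirradiated arrays lay slightly higher. With each array centred on its median the split turned to 21 higher and 24 lower, with a median of -0.0013. With limma 0 of 45 passed a Benjamini-Hochberg adjusted p of 0.05 over all probe sets, as did 0.0% of all probe sets, and the smallest adjusted p of a member was 0.839. At an unadjusted p under 0.05, 1 member (2.22%) was higher and 0 were lower, against 2.84% of all probe sets higher and 2.97% lower, so the share of members was not above the background. The filter that the study set, which asks for a log2 change of 0.4 or more in size beside an unadjusted p of 0.05 or less, was passed by 0 members and by 0.642% of probe sets. In 0 members did the groups fail to overlap, where 1.67% of all probe sets were separated upward and 1.68% downward. For 30 members the 95% interval of the difference lay inside 0.4 in either direction. It reached 0.4 upward for 12 and downward for 5, Esrp1 and Rab25 among both. Some of the 30, such as Cldn8 and Ehf, had a mean below the median of probe set means. RMA understates changes near background, so narrow intervals there do not show that a gene was level.

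**Figure D1:**
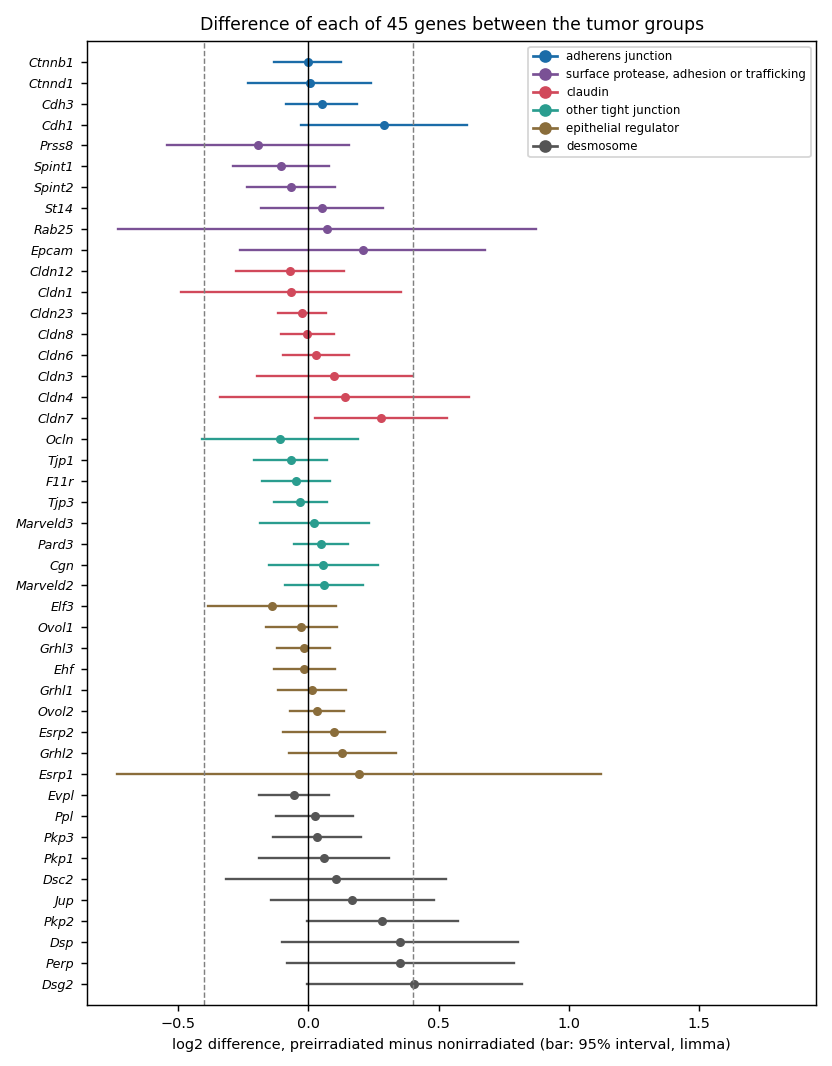
Log2 difference between 4 preirradiated and 4 nonirradiated tumors (x axis) for each of 45 genes (y axis), coloured by role. Points are limma estimates, bars their 95% intervals, and dashed lines mark 0.4 in either direction. The interval of Cldn7 alone lies wholly above 0, those of Dsg2 and Pkp2 begin just below it, and Esrp1 and Rab25 have the widest.

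In the adherens junction, Cdh1, which encodes E-cadherin, was the member with the largest difference. Cdh1 was 9.63, 9.74, 9.35 and 9.72 in nonirradiated tumors 1 to 4, and 9.90, 10.27, 9.71 and 9.72 in preirradiated tumors 1 to 4. Preirradiated tumors 1 and 2 were above every nonirradiated tumor, and preirradiated tumors 3 and 4 lay within the nonirradiated range. The means were 9.61 ± 0.18 and 9.90 ± 0.26 (SD, n = 4 each), a log2 difference of 0.29 (SE 0.14, 95% interval -0.030 to 0.61) or 1.22-fold (limma unadjusted p = 0.0701, adjusted p = 0.869). Without preirradiated tumor 2 the difference was 0.17. The catenins that join cadherin to the cell interior were level. Ctnnb1, beta-catenin, was 11.78, 11.73, 11.80 and 11.93 in nonirradiated and 11.85, 11.88, 11.73 and 11.77 in preirradiated tumors, a difference of -0.0028 (95% interval -0.13 to 0.13). Ctnnd1, p120-catenin, which holds cadherin at the membrane, differed by 0.0049 (95% interval -0.23 to 0.24). Cdh3, P-cadherin of basal epithelial cells, differed by 0.051 and spanned 5.41 to 5.66.

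Among the claudins, the strands that set what passes a tight junction, Cldn7 was the 1 member past an unadjusted p of 0.05. Cldn7 was 8.36, 8.64, 8.24 and 8.35 in nonirradiated tumors 1 to 4 and 8.48, 8.80, 8.56 and 8.87 in preirradiated tumors 1 to 4. Preirradiated tumors 2 and 4 were above every nonirradiated tumor, while tumors 1 and 3 were below nonirradiated tumor 2, so the groups overlapped. The means were 8.40 ± 0.17 and 8.68 ± 0.19, a log2 difference of 0.28 (SE 0.11, 95% interval 0.026 to 0.53) or 1.21-fold. The limma unadjusted p was 0.0346 and the adjusted p 0.839, and the exact two-sided permutation p was 0.0857, where 0.0286 is the smallest that 4 against 4 tumors allow. The unadjusted p of Cldn7 rose above 0.05 without nonirradiated tumor 1, 3 or 4 or without preirradiated tumor 2 or 4, with differences of 0.22 to 0.27 there, and with each array centred on its median (0.25).

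Cldn4 followed another pattern, with preirradiated tumor 2 the highest of the 8. Cldn4 was 10.88, 11.19, 10.67 and 11.08 in nonirradiated and 11.16, 11.67, 10.70 and 10.86 in preirradiated tumors, a difference of 0.14 (95% interval -0.34 to 0.62) that became -0.051 without preirradiated tumor 2. Cldn3 was 8.82, 9.22, 8.86 and 9.11 against 9.19, 9.36, 8.85 and 9.01, a difference of 0.10 (95% interval -0.20 to 0.40). Preirradiated tumor 2 was again the highest of the 8. The other claudins differed by -0.071 to 0.030, with unadjusted p of 0.450 to 0.915. Of these Cldn12 ran from 8.38 to 8.78, Cldn1, a claudin of the skin barrier, from 4.87 to 5.60, and Cldn6, Cldn8 and Cldn23 each varied by at most 0.25 over the 8 tumors.

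The remaining tight junction genes differed by -0.11 to 0.059 and 0 of 8 passed an unadjusted p of 0.05. Ocln, occludin, was 7.33, 7.36, 7.38 and 7.92 in nonirradiated tumors 1 to 4 and 7.53, 7.34, 7.33 and 7.35 in preirradiated tumors. Nonirradiated tumor 4 stood alone above the other 7, and the group difference was -0.11 (95% interval -0.41 to 0.19), or 0.032 without that tumor. Tjp1, the scaffold ZO-1 under the junction membrane, was 10.51, 10.56, 10.73 and 10.73 against 10.56, 10.64, 10.56 and 10.50, a difference of -0.068 (95% interval -0.21 to 0.073). Cgn, cingulin, which ties the junction to the cytoskeleton, was 6.30, 6.48, 6.47 and 6.53 against 6.43, 6.67, 6.29 and 6.63, with tumors of both groups mixed throughout the range. Marveld2, tricellulin of the corners where cells meet, Marveld3, the adhesion molecule F11r, the scaffold Tjp3 and the polarity protein Pard3 differed by -0.047 to 0.059.

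Desmosome genes leaned upward most often, with 9 of 10 higher on average, a median difference of 0.14 and 0 of 10 past an unadjusted p of 0.05. With arrays centred on their medians 7 of 10 were higher, with a median of 0.10. Dsg2, desmoglein 2, a cadherin of the desmosome, had the largest difference of all 45 genes. Dsg2 was 7.32, 7.34, 7.07 and 7.31 in nonirradiated tumors and 7.73, 8.18, 7.25 and 7.49 in preirradiated tumors 1 to 4. Preirradiated tumors 1, 2 and 4 were above all nonirradiated tumors and tumor 3 fell among them. The means were 7.26 ± 0.13 and 7.66 ± 0.40, a log2 difference of 0.41 (SE 0.18, 95% interval -0.0064 to 0.82) or 1.33-fold (limma unadjusted p = 0.0529, adjusted p = 0.851, exact permutation p = 0.114). Leaving out preirradiated tumor 2 brought the Dsg2 difference to 0.23, and leaving out preirradiated tumor 3 brought it to 0.54 (limma unadjusted p = 0.00971).

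Dsp, desmoplakin, which fastens keratin filaments to the desmosome, was 8.34, 8.66, 8.41 and 9.11 against 9.02, 9.37, 8.88 and 8.66, a log2 difference of 0.35 (95% interval -0.10 to 0.81). Jup, plakoglobin, shared by desmosomes and adherens junctions, was 10.87, 11.11, 10.93 and 11.35 against 11.33, 11.50, 10.997 and 11.10, a difference of 0.17 (95% interval -0.14 to 0.48). In both genes nonirradiated tumor 4 was the highest of its group and overlapped the preirradiated tumors. Pkp3, a plakophilin of simple and stratified epithelia, was 8.22, 8.42, 8.18 and 8.36 against 8.40, 8.40, 8.33 and 8.17, with no separation. Perp, a p53-induced desmosome membrane protein, and Pkp2 are described after their values were seen. Perp was 8.45, 8.31, 8.05 and 8.89 against 8.70, 9.17, 8.70 and 8.56 (difference 0.35, 95% interval -0.083 to 0.79), and nonirradiated tumor 4 was the highest after preirradiated tumor 2. Pkp2, a plakophilin, was 6.45, 6.45, 6.66 and 6.90 against 7.16, 6.93, 6.75 and 6.75 (difference 0.28, 95% interval -0.0070 to 0.58, limma unadjusted p = 0.0545). Only nonirradiated tumor 4 reached into the preirradiated range of Pkp2. The desmocollin Dsc2, the plakophilin Pkp1 and the cornified envelope plakins Ppl and Evpl differed by -0.054 to 0.11.

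**Figure D2:**
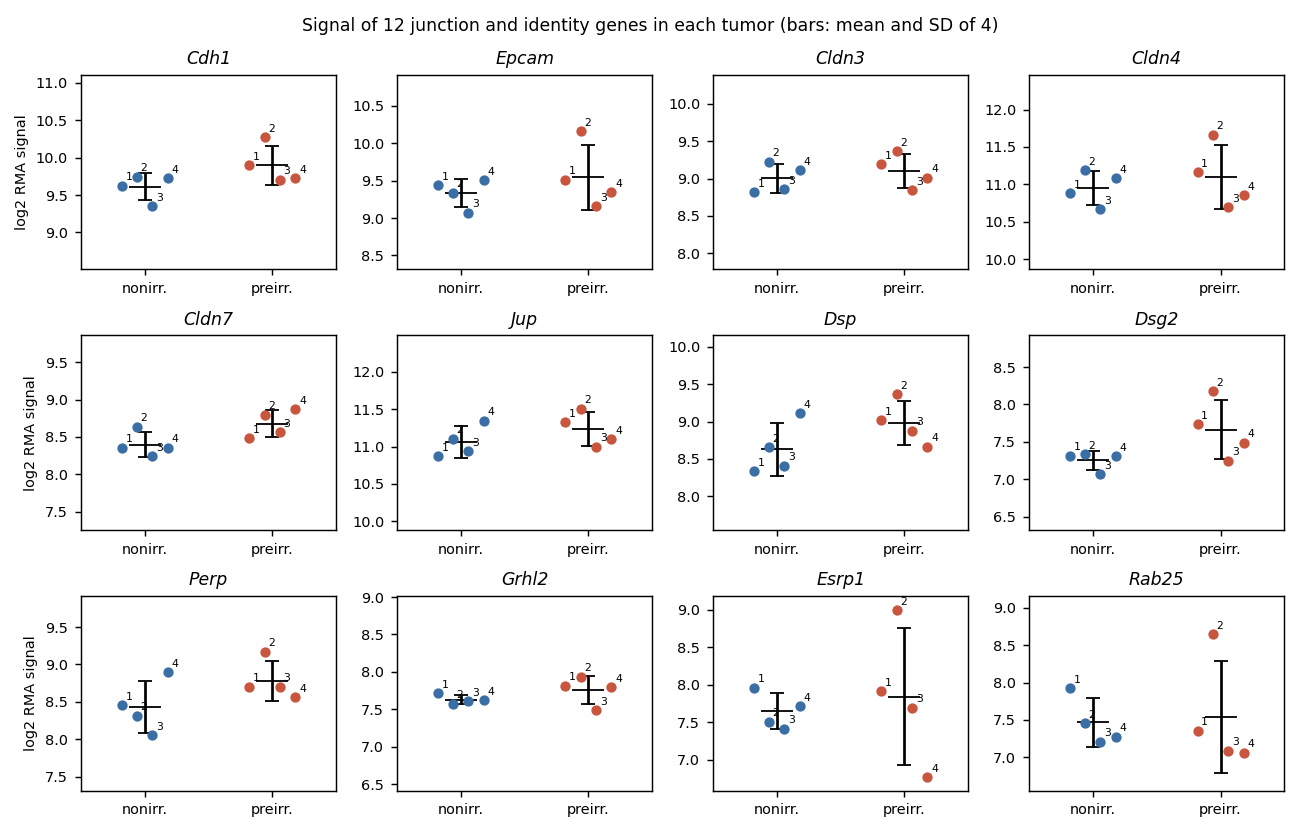
Log2 RMA signal (y axis, the same span in every panel) of 12 genes in nonirradiated (blue) and preirradiated (red) tumors, each point a tumor with its number and bars giving the mean and SD of 4. Preirradiated tumor 2 is the highest point for all but Cldn7, where preirradiated tumor 4 is highest, and Esrp1 in preirradiated tumors runs from 6.77 to 8.998.

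The regulators of epithelial identity varied little between the groups, with 0 of 9 past an unadjusted p of 0.05, but Esrp1 varied more among preirradiated tumors than any other of the 45 genes. Esrp1, an epithelial splicing regulator, was 7.96, 7.50, 7.41 and 7.71 in nonirradiated tumors and 7.91, 8.998, 7.69 and 6.77 in preirradiated tumors 1 to 4. Preirradiated tumor 2 was the highest of the 8 and preirradiated tumor 4 the lowest, 2.23 log2 units apart. The means were 7.65 ± 0.24 and 7.84 ± 0.92, and the interval of the difference ran from -0.74 to 1.12. Its paralog Esrp2 spanned 7.01 to 7.43 and differed by 0.099.

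Grhl2, the grainyhead factor that activates Cdh1 and claudin genes, was 7.71, 7.57, 7.60 and 7.62 against 7.81, 7.93, 7.49 and 7.80. Preirradiated tumors 1, 2 and 4 were above every nonirradiated tumor and tumor 3 was below them all, and the difference was 0.13 (95% interval -0.076 to 0.34). Elf3, an epithelial ETS factor, was 6.31, 6.43, 6.41 and 6.53 against 6.31, 6.56, 6.02 and 6.23, a difference of -0.14 (95% interval -0.38 to 0.11). Without preirradiated tumor 2 the Elf3 difference was -0.23 with an unadjusted p of 0.0231. Ovol1, a zinc finger factor that restrains mesenchymal genes, was 5.18, 5.28, 5.15 and 5.41 against 5.28, 5.18, 5.24 and 5.21, a narrow range with mixed groups. Grhl1, Grhl3, Ovol2 and Ehf differed by -0.018 to 0.033.

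Among the 6 surface genes, 3 were higher and 3 lower on average, and 0 passed an unadjusted p of 0.05. Epcam, an adhesion molecule of carcinoma cells that binds Cldn7, was 9.44, 9.34, 9.07 and 9.51 against 9.51, 10.16, 9.16 and 9.35. Its difference of 0.21 (95% interval -0.26 to 0.68) came to 0.0029 without preirradiated tumor 2. Rab25, a GTPase of apical recycling, described after its values were seen, was 7.93, 7.45, 7.21 and 7.28 against 7.36, 8.65, 7.09 and 7.06. The Rab25 difference was 0.070 with all tumors and -0.30 without preirradiated tumor 2. St14, the membrane protease matriptase, was 10.26, 10.28, 10.22 and 10.42 against 10.42, 10.60, 10.25 and 10.11, and its inhibitor Spint1 was 10.37, 10.49, 10.48 and 10.64 against 10.41, 10.57, 10.33 and 10.24. Both were lowest in preirradiated tumor 4, and they differed by 0.052 (95% interval -0.18 to 0.28) and -0.10 (95% interval -0.29 to 0.079). Spint2, a second inhibitor, and Prss8, prostasin, which matriptase activates, differed by -0.066 and -0.19.

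High and low values of these genes gathered in particular tumors. Preirradiated tumor 2 held the highest value of 19 of the 45 genes (42.2%), while it held the highest value of 13.9% of all probe sets tested. Nonirradiated tumor 4 held the highest of 11 (24.4%, against 10.3%). The lowest values fell in nonirradiated tumor 1 for 12 genes (26.7%, against 18.1% of all probe sets), in nonirradiated tumor 3 for 10 (22.2%, against 8.0%) and in preirradiated tumor 4 for 9 (20.0%, against 13.2%). All 9 genes that varied by at least 0.9 over the tumors (Esrp1, Rab25, Perp, Dsg2, Epcam, Dsp, Cldn4, Cdh1 and Dsc2) peaked in preirradiated tumor 2, as did 25.3% of the 1623 probe sets that varied this much. These genes span every role except the other tight junction proteins, whose widest member was Ocln at 0.59. In preirradiated tumor 2 the mean of 10 luminal mammary markers was 8.37, the highest of the 8 tumors (8.13 to 8.28 in the others). It held the highest value of 4 of the 10, Csn3, Krt19, Krt7 and Gata3, while Krt8 and Krt18 were within 0.007 of the mean of the other preirradiated tumors and Wap, Ltf and Csn2 were lower than it. Its means of skeletal muscle markers (5.94) and skin markers (5.40) lay within the low range of the other tumors. Their part in the peak was not tested.

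**Figure D3:**
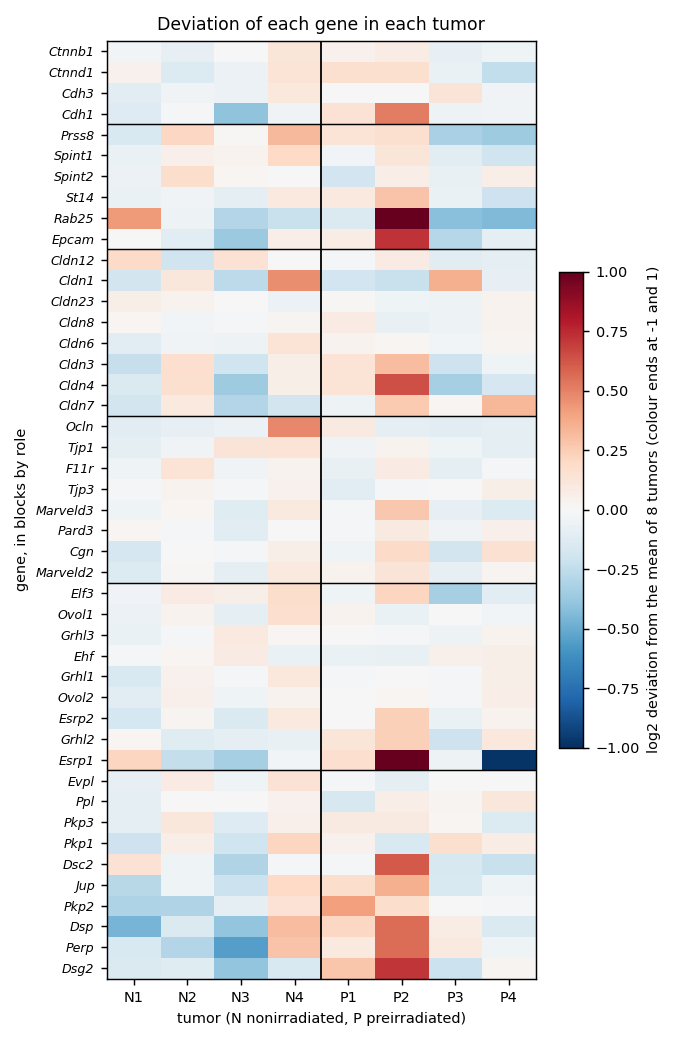
Log2 deviation of each gene (rows) from its mean over 8 tumors (columns, N nonirradiated and P preirradiated), in blocks from the top for adherens junction, surface, claudin, other tight junction, regulator and desmosome genes. The column of preirradiated tumor 2 is the reddest, with Esrp1, Rab25, Epcam, Dsg2 and Cldn4 strongest, while Ocln and Cldn1 are highest in nonirradiated tumor 4.

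Many of the genes varied with Cdh1 from tumor to tumor. Over 8 tumors Pearson's r with Cdh1 was above 0.7 for 14 of the 44 other genes (31.8%), against 2.29% of all other probe sets, and the median r was 0.39 against -0.0012. Dsg2 was closest (r = 0.95, exact permutation p = 0.00124, rho = 0.83, exact permutation p = 0.0154). Epcam followed (r = 0.91, exact permutation p = 0.00479, rho = 0.76, exact permutation p = 0.0368), then Cldn4 (r = 0.90, exact permutation p = 0.00295, rho = 0.90, exact permutation p = 0.00456). Over the family of 44 relations the smallest Benjamini-Hochberg adjusted permutation p was 0.0513 for r and 0.0669 for rho, so 0 relations passed 0.05 adjusted, and 14 passed it unadjusted by r. This set is not the 14 genes above 0.7. It includes Ehf, whose r was negative, and leaves out Esrp1 (r = 0.71, exact permutation p = 0.0531). The adjusted count was 6 without nonirradiated tumor 1, 8 without nonirradiated tumor 4 and 7 with arrays centred on their medians. No share over all probe sets is given for these counts by p, so they cannot be set against a background. Without preirradiated tumor 2 and nonirradiated tumor 3, the tumors farthest from the Cdh1 median, r was 0.84 for Dsg2, 0.34 for Epcam and 0.58 for Cldn4. Of the 14 genes above 0.7, 3 stayed above it then (Dsg2, Jup and Cldn3). Leaving out the extremes of Cdh1 narrows its range and tends to lower r by itself, so this does not settle the other relations. Without preirradiated tumor 2 alone, r was 0.86 for Dsg2, 0.73 for Epcam and 0.71 for Cldn4, and as low as 0.19 for Esrp1. After group means were removed, r was 0.92 for Dsg2, 0.94 for Epcam and 0.97 for Cldn4. Ehf, an epithelial ETS factor, ran the other way (r = -0.74, exact permutation p = 0.0161, rho = -0.74, exact permutation p = 0.0458) within a span of 5.18 to 5.34. That span lies below the median of probe set means (5.98), where signal is near background. The Benjamini-Hochberg adjusted permutation p of r for Ehf was 0.0789. Without preirradiated tumor 2 and nonirradiated tumor 3 its r was -0.43.

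**Figure D4:**
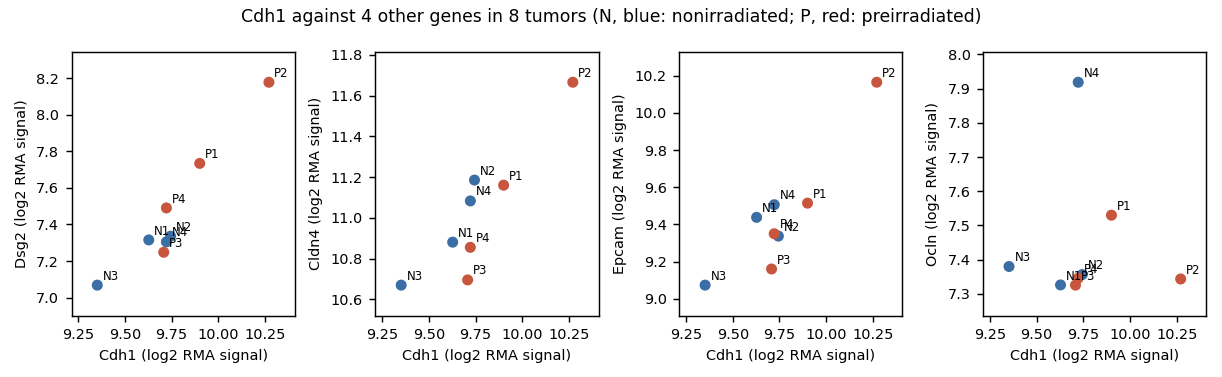
Log2 RMA signal of Cdh1 (x axis) against Dsg2, Cldn4, Epcam and Ocln (y axes) in 8 tumors. Dsg2 tracks Cdh1 over all tumors (r = 0.95), r with Epcam goes from 0.91 to 0.34 without preirradiated tumor 2 and nonirradiated tumor 3, and Ocln (r = -0.011) is set apart by nonirradiated tumor 4.

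Skin epidermis is a second epithelium that a mammary tumor sample can carry, and its markers were high in 1 tumor of each group. The mean of 12 skin markers was 6.18 in nonirradiated tumor 4 and 6.20 in preirradiated tumor 3, and 5.38 to 5.53 in the other 6 tumors. Krt10, the keratin of differentiating epidermis, named for that role, was 7.29 and 7.76 in these tumors and at most 6.31 elsewhere. For 10 of 12 skin markers these were the highest tumors, and for 3 of 45 junction and identity genes (6.67%), Cldn1, Pkp1 and Cdh3, against 1.85% of all probe sets. Ocln was high in nonirradiated tumor 4 only, at 7.92, and 7.33 in preirradiated tumor 3. Over the groups, the means ran from 5.38 to 6.18 in nonirradiated and from 5.40 to 6.20 in preirradiated tumors for skin markers. They ran from 5.89 to 6.15 and from 5.94 to 9.91 for skeletal muscle markers, high in preirradiated tumors 1 and 3, and from 9.25 to 9.43 and from 9.55 to 9.89 for fibroblast markers. None of the 15 muscle, 10 fibroblast or 12 skin genes is among the 45 genes, and their part in the differences was not tested.

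**Figure D5:**
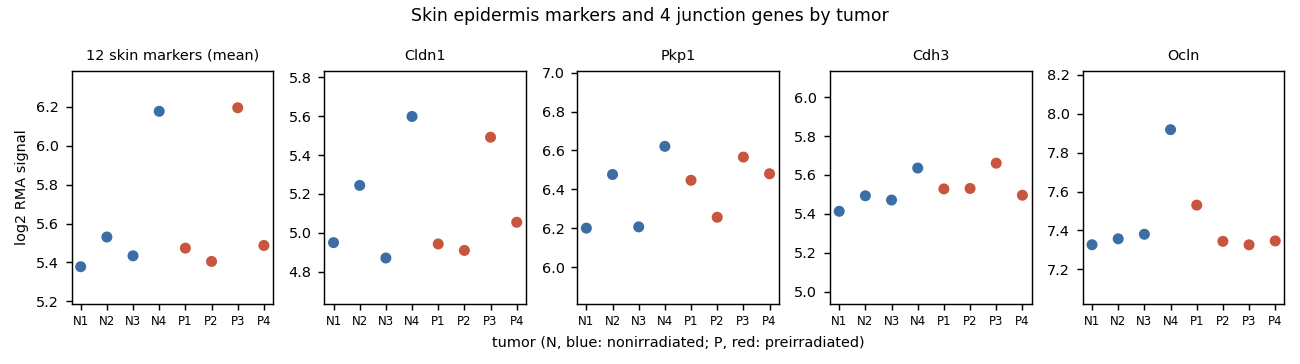
Mean log2 RMA signal of 12 skin epidermis markers and signal of Cldn1, Pkp1, Cdh3 and Ocln (y axes, equal span) in each of 8 tumors (x axis). Nonirradiated tumor 4 and preirradiated tumor 3 stand out in the skin mean (6.18 and 6.20) and hold the highest values of Cldn1, Pkp1 and Cdh3, while Ocln stands out in nonirradiated tumor 4 alone.

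The count of members changed when both tumors with high skin markers were left out, a setting chosen after the data were seen. Of 45 genes, 6 (13.3%) then passed an unadjusted p of 0.05 as higher, beside 2.49% of all probe sets, and 0 passed as lower, beside 1.73%. By limma, over 3 tumors a group, the log2 difference was 0.43 for Pkp2 (unadjusted p = 0.0100), 0.22 for Grhl2 (unadjusted p = 0.0127) and 0.56 for Dsg2 (unadjusted p = 0.0191). It was 0.53 for Perp (unadjusted p = 0.0227), 0.55 for Dsp (unadjusted p = 0.0239) and 0.34 for Jup (unadjusted p = 0.0246). Desmosome genes made up 5 of the 6. Nonirradiated tumor 4 was the highest of its group for Dsp, Perp, Pkp2 and Jup. Preirradiated tumor 3 was the lowest of its group for Dsg2, Grhl2 and Jup. Leaving out such tumors widens these differences by construction, so the setting gives no separate support for them. Preirradiated tumor 3 also had the highest mean of skeletal muscle markers (9.91). The study's filter was passed by 4 of 45, Pkp2, Dsg2, Perp and Dsp, beside 0.674% of all probe sets. With limma 0 passed an adjusted p of 0.05, and Cldn7 (0.30) no longer passed an unadjusted p of 0.05. Leaving out nonirradiated tumor 4 alone was enough for Dsp (0.51), Perp (0.51) and Pkp2 (0.38), and preirradiated tumor 3 alone for Dsg2 (0.54), Grhl2 (0.22) and Pkp2 (0.33). Cdh1 passed without preirradiated tumor 3 alone (0.35, limma unadjusted p = 0.0462) and not without both tumors (0.39, limma unadjusted p = 0.0531).

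Related genes were counted in the same way, in lists chosen with earlier results of these data known. Their shares beside the background are therefore description and give no independent support. Of 25 other junction components, 2 were higher and 1 lower at an unadjusted p under 0.05 and 0 passed an adjusted p, with a median difference of 0.020. Those called were 8.0% higher and 12% in either direction, against 2.84% and 5.8% of all probe sets. The paracingulin gene Cgnl1 was 8.70 to 8.91 in nonirradiated and 8.89 to 9.08 in preirradiated tumors (difference 0.19, limma unadjusted p = 0.0109). The adhesion molecule Nectin1 differed by 0.21 (limma unadjusted p = 0.0321) and the claudin Cldn9 by -0.19 (limma unadjusted p = 0.0238). Of 14 apical-basal polarity genes 0 were higher and 1 was lower, Pard6a, a PAR6 scaffold (-0.18, limma unadjusted p = 0.0358), which is 7.14% in either direction, with a median of 0.016. In the mesenchymal list 3 of 12 (25%, against 2.84% of all probe sets) were higher and 0 lower at that threshold, with a median of 0.041. Its largest differences were in Prrx1, a homeobox factor of connective tissue (0.55, limma unadjusted p = 0.00108), whose groups did not overlap, and Cdh11, a cadherin of fibroblasts (0.47, limma unadjusted p = 0.0186). Of 10 luminal markers, 6 were higher and 4 lower on average, with a median of 0.019. At an unadjusted p under 0.05, 1 (10%, against 2.84% of all probe sets) was higher and 0 were lower. That marker, Krt7, a keratin of glandular epithelium, was 10.23, 10.26, 10.35 and 10.48 against 10.64, 10.86, 10.58 and 10.81 (difference 0.39, limma unadjusted p = 0.00118, adjusted p = 0.620). Its groups did not overlap, and Krt19 was highest in preirradiated tumor 2, at 7.90.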

How the data were processed

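RNA from 8 tumors was hybridized to Affymetrix Mouse Gene 1.0 ST arrays, 1 per tumor. The deposited values are log2 RMA expression values that the authors made with the affy package, per the series' design text (Bioconductor 2.4) and the submitters' processing notes (R 2.15.3). The chip description file and genome build are not given in the sources used here. RMA brings arrays close to each other and understates changes near background. Depth has no counterpart on arrays, where the number of tumors limits precision.

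Of 34760 probe sets, 34738 with a mean of at least 4.0 entered a two-sided test in R 4.3.3, the eBayes step of limma 3.58.1 after lmFit, with Benjamini-Hochberg adjustment over all. Platform symbols were checked by Entrez ID against RefSeq GRCm38.p6, which changed 0. Exact permutation tests used the 70 assignments of tumors to groups, or all orders of the tumors for correlations. The fit was tested on simulated data. The genes, lists and markers were chosen with earlier results of these data known. Genes named with values in every tumor were those with an unadjusted p under 0.05, a difference of at least 0.4 or separated groups, 18 fixed by role, and Perp, Pkp2 and Rab25, added after their values were seen. From every other list up to 4 were named, the 2 smallest p and the 2 largest differences. Alternatives covered the expression limit, variance model, normalization, array weights, a replicate block, probe set choice (without effect on the values of the 45 genes) and left-out tumors. Listed genes that share every probe set with another gene, or have none, were not analysed here.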

Additional observations from a re-analysis of the deposited data

Results flagged for a closer look

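In each gene and group of 4 tumors, 90 groups in all, a tumor was noted when its gap to the nearest other tumor took up nearly the whole range of the group by Dixon's criterion at 95%, which chance meets in about 1 of 20 groups. It was met 4 times, which is not above that rate. Ocln was 7.92 in nonirradiated tumor 4, against 7.33 to 7.38 in the other nonirradiated tumors. Ocln was also 7.53 in preirradiated tumor 1, against 7.33 to 7.35 in the other preirradiated tumors. Grhl1 was 5.44 in preirradiated tumor 4, against 5.37 to 5.38. Dsg2 was 7.07 in nonirradiated tumor 3, against 7.31 to 7.34, the low end of a group whose other tumors lay close together.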

How the results depend on the processing

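The median difference of the 45 genes was positive in 17 of 18 alternatives, 0.0029 to 0.056 when 1 tumor was left out, and -0.0013 with arrays centred on their medians. In all 18, 0 genes passed an adjusted p. Each of the 45 genes had 1 probe set of its own. Averaging a gene's probe sets therefore left the 45 differences unchanged and moved calls only through the variance model. Counts of genes higher at an unadjusted p under 0.05 moved from 1 to 2 with a mean limit of 6.0 or a further quantile normalization. They moved to 0 with arrays centred on their medians. They were 3 with the mean of all probe sets of a gene, which tested only genes with their own probe set. They ran from 0 to 5 when 1 tumor was left out (0 without nonirradiated tumor 1 or 3 or preirradiated tumor 2, 3 without nonirradiated tumor 4, 5 without preirradiated tumor 3), and were 4 without preirradiated tumors 1 and 3 and 6 without both tumors high in skin markers. Lower genes ran from 0 to 1 when 1 tumor was left out, the 1 being Elf3 without preirradiated tumor 2. The study's filter was passed by 1 gene with the limit of 6.0 or the probe set mean, by 0 to 2 when 1 tumor was left out, by 2 without preirradiated tumors 1 and 3 and by 4 without both tumors high in skin markers. Separated groups ran from 0 to 5 genes upward (5 without nonirradiated tumor 4) and from 0 to 1 downward when 1 tumor was left out. Separation is easier to meet with fewer tumors. Shares over all probe sets were not counted when 1 tumor was left out, so these counts cannot be set against a background. By the exact permutation test 0 genes passed. In the related lists the 5 higher and 2 lower calls ran from 3 to 6 and from 0 to 3 when 1 tumor was left out. With the replicate block they were 4 and 0, without preirradiated tumors 1 and 3 they were 2 and 1, and lower calls were 1 without both tumors high in skin markers. Relations with Cdh1 past an adjusted p numbered 1 after quantile normalization, 7 with centred arrays and 0 to 8 when 1 tumor was left out (6 without nonirradiated tumor 1, 8 without nonirradiated tumor 4). Their median r ran from 0.35 to 0.52 then, and was 0.55 without both tumors high in skin markers. The cause of these changes was not tested. Of 800 single differences under alternatives, 60 changed sign, in 24 genes, and 0 of these were past the threshold.

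Tumors with the same number in the titles did not deviate in the same direction over probe sets (r of -0.075, -0.29, -0.088 and -0.18 for numbers 1 to 4). The labels do not say what the numbers mean, and whether they mark pairs was not tested. The main fit treated the tumors as unpaired. With the replicate block 3 genes were higher at an unadjusted p under 0.05 (Cdh1, Cldn7 and Dsg2) and 1 passed the study's filter. Signal near background limits 9 genes below the median of probe set means, whose median SD within groups was 0.077, against 0.16 in the other 36.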
